A study of Mus musculus with 24 samples.

Results

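The genes described here are the matrix metalloproteinases (MMPs), the ADAMTS proteases and the tissue inhibitors of metalloproteinases (TIMPs) of mouse retinal endothelial cells. They were taken by gene symbol from the array platform's annotation, with the probe set of the highest mean standing for a gene. The rule found 37 of the 18193 genes measured, namely 18 Mmp, 15 Adamts and 4 Timp genes, which together have 70 probe sets.

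MMPs and ADAMTS proteases are zinc enzymes that cut proteins of the extracellular matrix, most of them made as inactive precursors. MMPs cut collagens, gelatins, laminins and many cell surface proteins, whereas several ADAMTS proteases cut proteoglycans such as versican and aggrecan. TIMPs bind the active site of these enzymes. In growing vessels, sprouting endothelial cells use such proteases to open the basement membrane, and TIMPs limit the process.

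Total RNA of 24 samples was hybridised to arrays of a single colour, and the values are log2 probe set intensities. The cells were retinal endothelial lines, purified with antibodies from adult wild type or Fz4-/- mice of either sex on a mixed C57Bl6/129 background. All lines carried the Immorto-mouse transgene, a temperature-sensitive large T antigen under the interferon-responsive H2Kb promoter, and RNA was taken at 37 °C without interferon. Fz4 (gene symbol Fzd4) is the receptor of Norrin, a secreted ligand that signals through β-catenin and is needed for retinal vessels to form.

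The 8 groups of 3 arrays were wild type or Fz4-/- cells on gelatin, on Matrigel, with control HEK293 cells, or with HEK293 cells that stably expressed Norrin. Matrigel is a gel of basement membrane proteins: those cells were starved for 24 h in 1% serum and then kept on the gel for 6 h in 1% serum, and the labels name no starvation for the gelatin cultures. HEK293 is a human embryonic kidney line, and the labels give co-culture RNA as about equal parts of mouse and human. Human transcripts can therefore meet the mouse probes in 4 of the groups. The labels do not say whether the replicates are separate cultures or lines, so a p-value covers no more than the spread from array to array here, which may be technical, and all differences between genotypes could be differences between lines.

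Fzd4 checked the genotype labels: its mean was 8.70 ± 0.35 (SD, n = 3) in wild type cells on gelatin and 5.06 ± 0.44 in Fz4-/- cells, a difference of -3.64 ± 0.22 (SE; limma, adjusted p = 7.77e-07). All 12 endothelial markers stood above the lowest 25% of genes in all 8 groups. The median of all genes was 6.27 to 6.41 in the groups without HEK293 cells and 4.25 to 4.48 in the co-cultures, so levels are not compared between these kinds of culture. Within the co-cultures it was 4.48 and 4.45 in wild type and 4.29 and 4.25 in Fz4-/-, with control and Norrin-expressing cells. An earlier account of these data found that genotype and array set coincide there, so the 2 cannot be told apart. Fz4-/- and wild type co-cultures were therefore not tested against each other. The arrays of replicates 2 and 3 resembled each other more than replicate 1 in 7 of the 8 groups over all genes and in 6 over the 37 members. On gelatin in wild type, for instance, the SD of the differences between arrays over the 37 members was 0.22 for replicates 2 and 3 but 0.59 and 0.64 between these and replicate 1.

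Of the 37 members, 19 passed the test in at least 1 of the 8 comparisons made, as did 44.7% of all genes. A gene passed where its Benjamini-Hochberg adjusted p, over all 18193 genes of a comparison, was below 0.05. Above the median of all genes in all 4 groups without HEK293 cells lay 12 members: Adamts1, Adamts4, Adamts5, Adamts7, Adamts9, Adamts10, Mmp2, Mmp3, Mmp14, Timp1, Timp2 and Timp3. Among the lowest 25% of genes in all 8 groups lay 9 members: Adamts3, Adamts15, Adamts18, Adamts19, Adamts20, Mmp1b, Mmp8, Mmp12 and Mmp20. A small difference in such a gene rests on probes near the lower end of the scale.

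**Figure D1:**
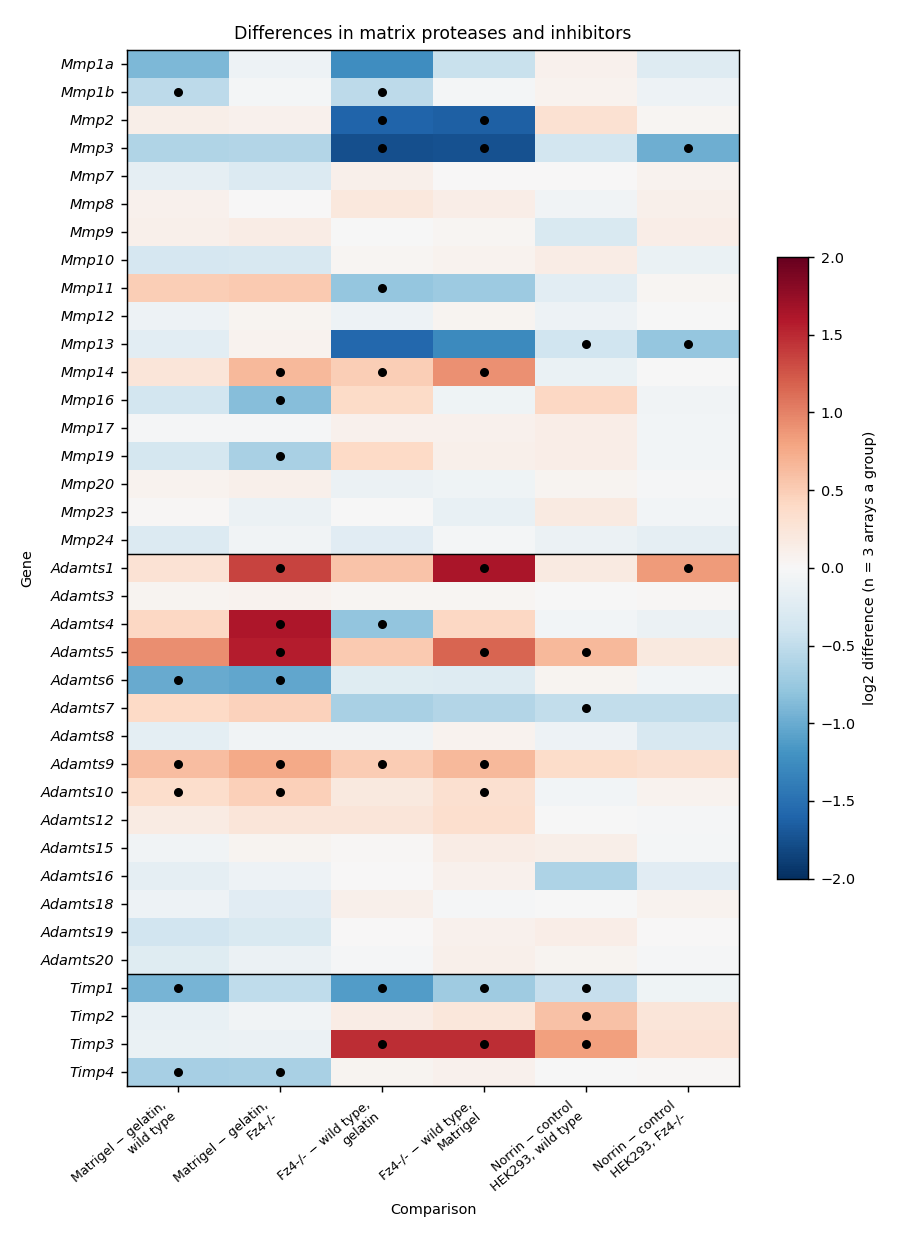
Log2 differences of the 37 genes (rows) in the 6 direct comparisons (columns, 3 arrays a group), in blue where lower and red where higher, with a black dot where the limma adjusted p was below 0.05. Lines part the MMP, ADAMTS and TIMP genes. The ADAMTS rows are redder in the Fz4-/- Matrigel column, with 5 dots for a rise against 2 in wild type, and the Mmp2, Mmp3 and Timp1 rows are blue in both genotype columns.

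Of the MMP members, 9 (Mmp13, Mmp12, Mmp1b, Mmp3, Mmp1a, Mmp10, Mmp8, Mmp20 and Mmp7, in this order) are neighbours on chromosome 9 in RefSeq, in a run of 10 protein-coding genes that are all MMPs. It holds the collagenases, stromelysins and matrilysin, and includes Mmp3, whose level differed most between the genotypes. Their promoters are shown because 8 of them share an element that the members outside this run with a promoter lack. The letters TGANTCA, the binding motif of AP-1 (the Fos and Jun family, a known activator of these genes), were found in the promoters of 8 of these 9 genes, and in 0 of the 14 other members with a promoter entry. Of 32851 RefSeq promoters of the same length, 7.81% held them. The motif reads the same on both strands and was sought together with the TCF/LEF motif CTTTGAT and the TEAD motif GGAATG on both strands. Capitals mark TGANTCA in the 120 bases around each start (110 before and 10 after), 5′ to 3′ along the gene, RefSeq GRCm38.p6:

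Mmp13 (chr9:7272404-7272523, plus strand): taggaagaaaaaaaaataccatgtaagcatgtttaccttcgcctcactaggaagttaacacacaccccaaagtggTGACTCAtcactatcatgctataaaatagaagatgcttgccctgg
Mmp12 (chr9:7347264-7347383, plus strand): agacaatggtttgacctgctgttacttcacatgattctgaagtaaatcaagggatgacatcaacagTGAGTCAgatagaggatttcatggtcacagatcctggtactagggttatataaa
Mmp1b (chr9:7388017-7388136, minus strand): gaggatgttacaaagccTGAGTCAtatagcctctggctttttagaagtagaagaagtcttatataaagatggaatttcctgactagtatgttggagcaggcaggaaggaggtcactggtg
Mmp3 (chr9:7445712-7445831, plus strand): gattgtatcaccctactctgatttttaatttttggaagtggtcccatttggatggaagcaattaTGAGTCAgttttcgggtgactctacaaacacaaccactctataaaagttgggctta
Mmp1a (chr9:7464031-7464150, plus strand): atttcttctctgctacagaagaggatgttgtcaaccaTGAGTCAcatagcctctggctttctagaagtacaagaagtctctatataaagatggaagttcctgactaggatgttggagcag
Mmp10 (chr9:7502232-7502351, plus strand): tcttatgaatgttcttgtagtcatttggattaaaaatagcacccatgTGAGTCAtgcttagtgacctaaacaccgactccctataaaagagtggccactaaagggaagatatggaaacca
Mmp8 (chr9:7558319-7558438, plus strand): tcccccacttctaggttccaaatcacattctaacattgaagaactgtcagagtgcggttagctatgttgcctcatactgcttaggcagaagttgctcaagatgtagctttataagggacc
Mmp20 (chr9:7628121-7628240, plus strand): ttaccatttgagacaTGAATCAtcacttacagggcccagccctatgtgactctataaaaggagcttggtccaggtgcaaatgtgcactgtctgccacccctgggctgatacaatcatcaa
Mmp7 (chr9:7691980-7692099, plus strand): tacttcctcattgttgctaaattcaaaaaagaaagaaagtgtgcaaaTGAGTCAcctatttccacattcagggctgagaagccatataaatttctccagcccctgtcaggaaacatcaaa

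Counted from the first base of the gene as 0, the motif began at -35 in Mmp13, -46 in Mmp3, -63 in Mmp10 and -73 in Mmp1a, and at -95 in Mmp20, the farthest of the 8. Mmp8 had no match in its window. Mmp20 matched with TGAATCA, the others with TGAGTCA or TGACTCA. Where a gene had more than 1 promoter (Mmp12 and Mmp7), the one with the match is shown. The other Mmp12 promoter, at the first base of the gene in RefSeq, had no match. The TCF/LEF letters stood in 3.73% of all promoters and among members only at Mmp7, and the TEAD letters stood in 14.7% of all promoters and among members only at Timp1. These are matches of letters and show no binding. In all, 23 of the 37 members had a promoter in the table, and Timp1, Timp2, Timp3, Timp4, Mmp14, Adamts1 and Adamts9 were among those without TGANTCA.

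The members of this cluster did not all pass alike. Mmp3 passed the test between the genotypes on both surfaces, while Mmp10, Mmp7, Mmp8, Mmp12, Mmp20 and Mmp1a passed in 0 of the 8 comparisons. Of these, Mmp8, Mmp12 and Mmp20 lay among the lowest 25% of genes in all 8 groups, where a lack of calls says little. On gelatin Mmp1b (-0.53) passed as lower in Fz4-/- cells, and Mmp13 (-1.57) and Mmp1a (-1.24) were lower without passing. Mmp7 (0.11), Mmp8 (0.21) and Mmp10 were higher there, and Mmp12 (-0.09) and Mmp20 (-0.12) lower, all without passing. Mmp10, the stromelysin next in kind to Mmp3, differed by 0.05 between the genotypes on gelatin (4.27 to 4.72 in wild type and 4.45 to 4.56 in Fz4-/- cells) and by 0.06 on Matrigel. Mmp1a read 5.63, 3.71 and 3.21 on the wild type gelatin arrays, so 1 array set its mean, against 3.22, 2.81 and 2.80 in Fz4-/-.

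The first question was which of these genes differ between Matrigel, on which endothelial cells line up into cords, and gelatin. The labels name starvation in 1% serum for the Matrigel cultures only, so gel and starvation cannot be told apart here. This holds for the Matrigel response by genotype too. In wild type cells 2 members rose and 4 fell. Over all genes, 6.71% rose and 11.7% fell. In Fz4-/- cells 6 members rose and 4 fell, where 7.91% of all genes rose and 11.8% fell. The median difference of the 37 members was -0.10 in wild type and -0.04 in Fz4-/- cells, against -0.05 in both over all genes. Of the members, 4 were called in the same direction in both genotypes (Adamts9 and Adamts10 up, Adamts6 and Timp4 down), which is 4 of the 6 wild type calls and 4 of the 10 Fz4-/- calls. The direction was shared by 33 of the 37. The groups of no called member overlapped in either genotype. These counts, and that of calls in both genotypes, were not made over all genes. They are therefore not shown to be particular to the members. With replicates 2 and 3 averaged into 1 sample, 2 of the wild type calls were kept (Adamts6 and Timp4, where 3.16% of all genes passed) and 6 of the Fz4-/- calls (Adamts1, Adamts4, Adamts6, Mmp14, Mmp16 and Timp4, where 3.91% passed).

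The proteoglycan-cutting ADAMTS genes held the largest rises. Adamts4, an aggrecanase, read 8.73, 8.41 and 8.39 on gelatin in Fz4-/- cells and 10.07, 10.18 and 10.15 on Matrigel. All Matrigel arrays lay above all gelatin arrays, and the rise was 1.62 ± 0.18 (3.08-fold; adjusted p = 0.000239). In wild type cells Adamts4 read 9.17, 9.43 and 9.30 on gelatin and 9.20, 10.002 and 9.95 on Matrigel. There the groups overlapped and the difference did not pass. Its second probe set rose by 1.72 in Fz4-/- cells.

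Adamts5, another aggrecanase and a versicanase, read 7.96, 8.05 and 7.98 on gelatin and 10.58, 9.09 and 9.01 on Matrigel in Fz4-/- cells, a rise of 1.56 ± 0.33 (2.95-fold; adjusted p = 0.00699). Replicate 1 stood highest on Matrigel, and over the fits that each left out 1 array the rise was 1.05 to 1.84, past the threshold in every one. In wild type cells Adamts5 read 7.24, 7.58 and 7.59 on gelatin and 8.10, 8.60 and 8.49 on Matrigel, a difference of 0.93 that did not pass although the groups did not overlap. The other probe sets gave 1.59 and 1.33 in Fz4-/- cells and, in the dimmest set, -0.19.

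Adamts1, which cuts versican and aggrecan and is known to slow vessel growth, read 9.31, 9.78 and 9.85 on gelatin and 11.43, 10.86 and 10.70 on Matrigel in Fz4-/- cells. The rise was 1.35 ± 0.24 (2.56-fold; adjusted p = 0.00317) with no overlap. In wild type cells it read 8.76, 9.24 and 9.22 on gelatin and 8.96, 9.79 and 9.32 on Matrigel. These ranges overlapped, and no change passed.

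Adamts9, a versican-cutting protease that is expressed in endothelium, rose in both genotypes. In wild type it read 7.28, 7.40 and 7.49 on gelatin and 7.77, 8.14 and 8.13 on Matrigel, a rise of 0.62 ± 0.14 (1.54-fold; adjusted p = 0.00955). In Fz4-/- cells it read 7.72, 7.97 and 8.01 on gelatin and 8.92, 8.53 and 8.54 on Matrigel, a rise of 0.76 ± 0.14 (1.70-fold; adjusted p = 0.00317). The Matrigel arrays stood above the gelatin arrays in each genotype. The other probe sets gave 0.80 and 0.89 and, in the dimmest set, -0.09 and 0.29.

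Adamts10, which binds fibrillin microfibrils, had smaller rises of 0.35 ± 0.10 in wild type (adjusted p = 0.03) and 0.48 ± 0.10 in Fz4-/- cells (adjusted p = 0.00678). It read 7.30, 7.13 and 7.30 on gelatin and 7.54, 7.51 and 7.75 on Matrigel in wild type, and 7.57, 7.46 and 7.31 against 7.85, 7.90 and 8.03 in Fz4-/- cells. Its other probe set gave -0.06 and -0.12, so the rise was seen by 1 probe set only. The wild type call was lost without wild type Matrigel replicate 3, wild type gelatin replicate 2 or wild type gelatin replicate 3 (range over all arrays left out 0.28 to 0.40, adjusted p up to 0.112), and with median centring of each array (adjusted p = 0.0768).

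Adamts6, an ADAMTS10 relative, went the other way in both genotypes. It read 5.38, 4.84 and 5.47 on gelatin and 3.92, 4.39 and 4.34 on Matrigel in wild type, a fall of -1.01 ± 0.18 (2.02-fold; adjusted p = 0.00338). In Fz4-/- cells it read 5.08, 5.08 and 4.82 on gelatin and 4.20, 3.87 and 3.79 on Matrigel, a fall of -1.04 ± 0.18 (2.05-fold; adjusted p = 0.00278). The groups did not overlap in either genotype. A dimmer probe set of Adamts6 gave -0.04 and -0.06.

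Adamts7, which cuts the cartilage protein COMP and thrombospondin, did not pass in either genotype. It read 7.04, 7.47 and 7.57 on gelatin and 7.32, 7.995 and 7.97 on Matrigel in wild type, and 6.31, 6.89 and 6.95 against 6.82, 7.36 and 7.35 in Fz4-/- cells. Replicate 1 was the lowest in all 4 groups. With the replicate number as a block, which compares equal numbers, its differences of 0.40 and 0.46 passed (adjusted p = 0.00292 and 0.00136).

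**Figure D2:**
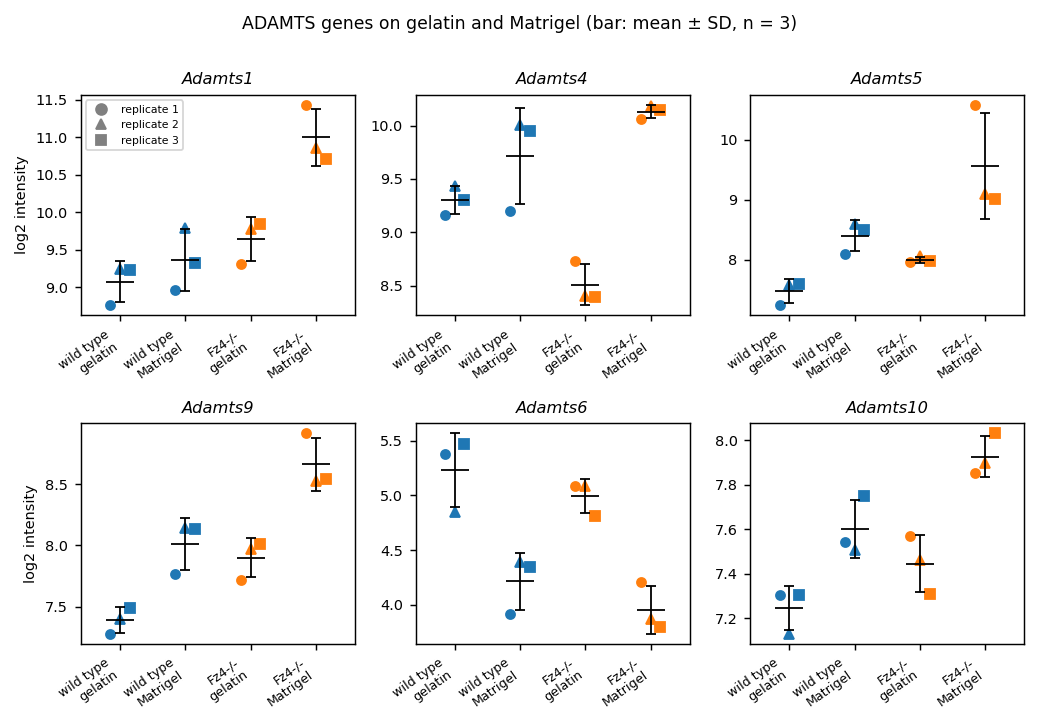
Log2 intensity (vertical axes, each with its own range) of 6 ADAMTS genes on the 12 arrays without HEK293 cells, by group (horizontal axis; blue wild type, orange Fz4-/-; symbols mark replicates), with mean and SD in black. Adamts1, Adamts4 and Adamts5 lie highest on Fz4-/- Matrigel arrays, and Adamts6 is lower on Matrigel in both genotypes.

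Among the MMPs, Mmp14 was the only riser. It encodes a membrane-bound collagenase that activates the precursor of MMP2 at the cell surface together with TIMP2. It read 9.46, 9.52 and 9.62 on gelatin and 10.09, 10.22 and 10.25 on Matrigel in Fz4-/- cells, a rise of 0.65 ± 0.09 (1.57-fold; adjusted p = 0.000944). In wild type it read 9.17, 8.97 and 8.97 on gelatin and 9.13, 9.38 and 9.31 on Matrigel, which overlapped (0.24 ± 0.09, adjusted p = 0.0998). Its other probe sets gave 0.41 and 0.09 in Fz4-/- cells.

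The gelatinases did not pass in either genotype. Mmp2 (gelatinase A) read 7.75, 8.92 and 9.07 on gelatin and 7.98, 9.10 and 8.999 on Matrigel in wild type, and 6.24, 7.32 and 7.36 against 6.26, 7.52 and 7.41 in Fz4-/- cells. Mmp9 (gelatinase B) read 4.91, 5.18 and 5.19 on gelatin and 5.27, 5.09 and 5.24 on Matrigel in wild type, and 5.20, 5.04 and 5.02 against 5.18, 5.30 and 5.21 in Fz4-/- cells. The gelatin and Matrigel ranges of both genes overlapped in each genotype.

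Mmp16 and Mmp19 fell on Matrigel in Fz4-/- cells. Mmp16, another membrane-bound MMP, read 5.70, 5.27 and 4.87 on gelatin and 4.38, 4.46 and 4.46 on Matrigel (-0.85 ± 0.16, adjusted p = 0.00453), against 4.78, 5.05 and 4.85 and then 4.56, 4.50 and 4.52 in wild type. Mmp19, which cuts basement membrane proteins, read 4.57, 4.08 and 4.06 on gelatin and 3.54, 3.72 and 3.52 on Matrigel (-0.64 ± 0.15, adjusted p = 0.0117), against 3.75, 3.83 and 3.94 and then 3.67, 3.59 and 3.23 in wild type. In neither gene did the Fz4-/- groups overlap. The other Mmp16 probe sets gave -1.46, -0.61 and -0.28, and the other Mmp19 probe set 0.06.

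Mmp1b, a rodent collagenase relative among the lowest 25% of genes, read 3.53, 3.04 and 3.12 on gelatin and 2.74, 2.44 and 2.95 on Matrigel in wild type, a fall of -0.52 ± 0.16 (adjusted p = 0.0455). The Fz4-/- cultures read 2.87, 2.59 and 2.63 on gelatin and 2.88, 2.61 and 2.49 on Matrigel. The wild type call was lost without wild type Matrigel replicate 1, wild type Matrigel replicate 2, wild type gelatin replicate 1 or wild type gelatin replicate 3 (range -0.64 to -0.37, adjusted p up to 0.165), and with quantile normalization within the fit (adjusted p = 0.0713). Mmp3, the stromelysin, and Mmp11, stromelysin-3, did not pass in either genotype. With the replicate number as a block, Mmp3 passed in both with -0.60 and -0.59 (adjusted p = 0.0346 and 0.0351). Mmp11 then passed with 0.48 and 0.52 (adjusted p = 0.00595 and 0.00377). Adamts20 joined them in wild type (-0.25, adjusted p = 0.0436). The block raised the members called from 6 to 10 in wild type, where 26.4% of all genes then passed, and from 10 to 14 in Fz4-/- cells, where 28.2% passed.

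All 4 inhibitors had lower means on Matrigel in both genotypes, and only some of them passed. Of all 18193 genes, 10548 had lower means on Matrigel in wild type and 10393 in Fz4-/- cells. Timp1, a secreted inhibitor of most MMPs, read 12.42, 11.81 and 11.88 on gelatin and 11.45, 10.95 and 10.95 on Matrigel in wild type, a fall of -0.92 ± 0.19 (1.90-fold; adjusted p = 0.00633). In Fz4-/- cells it read 11.16, 10.82 and 10.77 on gelatin and 10.52, 10.47 and 10.23 on Matrigel. These groups did not overlap either, but the difference of -0.51 ± 0.19 did not pass (adjusted p = 0.0743). It passed with the replicate block (adjusted p = 0.00433).

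Timp4 fell in both genotypes. It read 4.32, 4.25 and 4.16 on gelatin and 3.44, 3.78 and 3.50 on Matrigel in wild type (-0.67 ± 0.12, adjusted p = 0.0027), and 4.46, 4.26 and 4.18 against 3.50, 3.75 and 3.73 in Fz4-/- cells (-0.64 ± 0.12, adjusted p = 0.00316). On Matrigel these means lay among the lowest 25% of genes. Timp2, the inhibitor that bridges MMP14 and the MMP2 precursor, read 11.9996, 12.30 and 12.36 on gelatin and 11.89, 12.18 and 12.14 on Matrigel in wild type. The Fz4-/- cultures read 12.34, 12.37 and 12.41 on gelatin and 12.09, 12.40 and 12.39 on Matrigel. Timp3, which binds the matrix and also inhibits ADAM and ADAMTS proteases, read 8.84, 9.94 and 10.02 on gelatin and 8.89, 9.80 and 9.74 on Matrigel in wild type, and 10.23, 11.47 and 11.53 against 10.46, 11.20 and 11.20 in Fz4-/- cells. Neither Timp2 nor Timp3 separated the surfaces.

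Next came the question of whether the response to Matrigel differed between the genotypes. No member passed this test of the difference (limma; 3 of 37 had an unadjusted p below 0.05), and over all genes 0.0055% had a larger and 0.011% a smaller response in Fz4-/- cells, which is 1 and 2 genes. The 3 members were Adamts4, Adamts1 and Mmp14. The response of Adamts4 was larger in Fz4-/- cells by 1.21 ± 0.26 (adjusted p = 0.411), that of Adamts1 by 1.07 ± 0.34 (adjusted p = 0.861) and that of Mmp14 by 0.41 ± 0.13 (adjusted p = 0.861). Of the 37 members, 28 had a higher value in Fz4-/- cells in this contrast (median 0.07), including 13 of the 15 Adamts genes, beside 9264 of all 18193 genes (median 0.00). These genes were read on the same 12 arrays and are not replicates, and the counts were not tested. Adamts3 had 0.002, and it lay with Adamts15, Adamts18, Adamts19 and Adamts20 among the lowest 25% of genes in all 8 groups. Adamts4 passed when all 24 arrays were fitted together (adjusted p = 0.0217) and when replicate 1 was left out of every group (1.16, adjusted p = 0.0152), but in none of the 12 fits without a single array (adjusted p 0.181 to 0.908). Calls in Fz4-/- cells that wild type lacks, such as those of Adamts1 and Mmp14, are therefore not shown to differ between the genotypes.

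**Figure D3:**
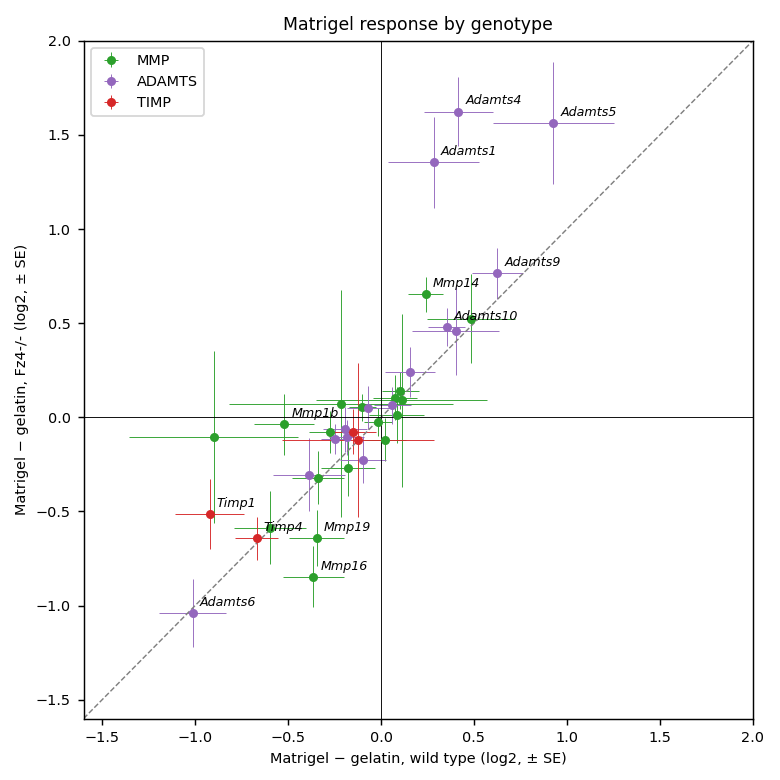
Matrigel minus gelatin difference (log2, ± SE) in wild type (horizontal) and Fz4-/- cells (vertical) for the 37 genes, coloured by family, with names for those called in either genotype. The dashed line marks equal responses. Adamts4 and Adamts1 lie farthest above it, by 1.21 and 1.07, while Adamts6 and Timp4 lie close to it.

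Some markers of other cell types moved with the surface, in both directions. Of the 8 pericyte and smooth muscle markers 3 fell in wild type and 2 in Fz4-/- cells, where 4 of the 8 had higher means. Acta2 and Tagln, contractile genes, fell by 0.93 and 0.47 in wild type and by 1.80 and 0.95 in Fz4-/- cells, and Myh11 fell by 0.44 in wild type. The mean over the 8 pericyte and smooth muscle markers was 4.63 to 4.67 on the wild type gelatin arrays and 4.37 to 4.46 on Matrigel, and 4.97 to 4.99 against 4.59 to 4.66 in Fz4-/- cells, with 3 of the 8 among the lowest 25% of genes in each group. Of the 6 fibroblast markers Col1a1 alone passed, with rises of 0.77 and 0.52. Of the 5 retinal neuron markers Tubb3 fell by 0.65 and 0.98 and Pde6b by 0.52 and 0.56, while the mean over these markers was 4.03 to 4.12 on gelatin and 3.71 to 3.85 on Matrigel in wild type, and 3.76 to 3.83 against 3.44 to 3.54 in Fz4-/- cells. In wild type Gfap rose by 0.48 and S100b fell by 0.63 among the 6 glial markers and Cx3cr1 fell by 0.35 among the 7 macrophage and microglia markers, of which Adgre1 rose by 0.46 in Fz4-/- cells. Of the 12 endothelial markers 3 rose in wild type and 4 in Fz4-/- cells. Their part in the protease results was not tested, and in whole cultures fewer cells of a type and less RNA per cell cannot be told apart.

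Genes that work with these proteases were counted from lists. Of 14 activators, surface regulators and inhibitors, 0 rose and 2 fell in wild type, and 3 rose and 2 fell in Fz4-/- cells. Thbs1, a matrix protein that binds MMPs and slows their activation, fell by 1.22 and 1.60, and Cd44, a docking receptor for MMPs, fell by 0.78 and 0.90. Thbs2 rose by 0.92 in Fz4-/- cells, where Pcsk6, a proprotein convertase, rose by 0.89. Of 9 genes of the plasminogen system, 2 fell in wild type (Plaur, the urokinase receptor, by 0.79 and Plg by 0.38) and 1 in Fz4-/- cells (Plg by 0.73). Of 15 basement membrane and proteoglycan substrates, 0 passed limma's test in either genotype (3 and 2 had an unadjusted p below 0.05), with medians of 0.10 and 0.03. Among 9 ADAM proteases, 2 rose and 2 fell in wild type, and 1 rose and 1 fell in Fz4-/- cells: Adam33 rose by 0.54 and 0.45 and Adam8 fell by 0.46 and 0.44, and of 7 ADAMTS-like genes Thsd4 rose by 0.58 and 0.38. The cathepsin Ctsk rose by 0.62 in wild type and 0.79 in Fz4-/- cells.

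The genotypes were then compared on each surface. On gelatin 3 members were higher and 6 lower in Fz4-/- cells, where 7.21% of all genes were higher and 7.73% lower. On Matrigel 6 were higher and 3 lower, against 6.91% and 8.77% of all genes. The median difference of the members was 0.01 on gelatin and 0.06 on Matrigel, against 0.00 and 0.02 over all genes. Of the 9 members called on each surface, 6 were called in the same direction on both: Adamts9, Mmp14 and Timp3 were higher in Fz4-/- cells, and Mmp2, Mmp3 and Timp1 were lower. No called groups overlapped. Neither this nor the count of calls shared by both surfaces was made over all genes. With replicates 2 and 3 averaged into 1 sample, Mmp3 alone kept its call on gelatin (3.67% of all genes passed), and Mmp3, Mmp14 and Adamts1 kept theirs on Matrigel (4.05% passed).

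Mmp3, which cuts proteoglycans, laminin and other MMP precursors, had the largest fall. It read 10.54, 9.71 and 9.64 in wild type and 8.36, 8.13 and 8.13 in Fz4-/- cells on gelatin, a difference of -1.76 ± 0.19 (3.38-fold; adjusted p = 9.79e-05). On Matrigel it read 9.40, 9.43 and 9.26 in wild type and 7.47, 7.73 and 7.66 in Fz4-/- cells, a difference of -1.75 ± 0.19 (3.35-fold; adjusted p = 0.000105). Every Fz4-/- array lay below every wild type array, and no array left out ended either call.

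Mmp13, a collagenase, read 5.39, 7.13 and 6.83 in wild type and 4.55, 5.06 and 5.03 in Fz4-/- cells on gelatin. On Matrigel it read 4.85, 6.86 and 6.99 in wild type and 3.97, 5.39 and 5.50 in Fz4-/- cells, where the ranges overlapped. Replicate 1 was the lowest in all 4 groups, and equal replicate numbers kept the genotypes apart. The differences of -1.57 and -1.28 did not pass (adjusted p = 0.112 and 0.192) and passed with the replicate block (adjusted p = 0.00161 and 0.00487).

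Mmp2 was lower in Fz4-/- cells by -1.61 ± 0.46 on gelatin (3.05-fold; adjusted p = 0.0359) and by -1.63 ± 0.46 on Matrigel (3.09-fold; adjusted p = 0.0332). Replicate 1 was lowest in each group by more than 1 log2 unit, yet the lowest wild type array (7.75 on gelatin, 7.98 on Matrigel) stayed above the highest Fz4-/- array (7.36 and 7.52). A second probe set gave -1.54 and -1.57. The gelatin call was lost without Fz4-/- gelatin replicate 1, 2 or 3 or wild type gelatin replicate 2 or 3 (range -2.02 to -1.24, adjusted p up to 0.139). The Matrigel call was lost without Fz4-/- Matrigel replicate 1 or wild type Matrigel replicate 2 or 3 (range -1.98 to -1.22, adjusted p up to 0.123). With a trended robust variance both calls were lost (adjusted p = 0.0543 and 0.0503), and with the replicate block both held.

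Mmp14 went the opposite way. From the values above, it was higher in Fz4-/- cells by 0.50 ± 0.09 on gelatin (1.41-fold; adjusted p = 0.00407) and by 0.91 ± 0.09 on Matrigel (1.88-fold; adjusted p = 6.33e-05). All Fz4-/- arrays lay above all wild type arrays, its other probe sets gave 0.69 and 0.35 on gelatin and 0.96 and 0.64 on Matrigel, and no array left out ended a call. So the membrane-bound activator was higher where the transcript of its target Mmp2 was lower.

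Of the stromelysin-like and dim MMPs, Mmp11 and Mmp1b passed on gelatin only. Mmp11, which is cut inside the cell into its active form, read 6.24, 6.49 and 6.68 in wild type and 5.18, 5.93 and 6.00 in Fz4-/- cells on gelatin (-0.77 ± 0.24, adjusted p = 0.0487). On Matrigel it read 6.61, 7.18 and 7.08 against 5.86, 6.39 and 6.43. It differed there by -0.73, which did not pass (adjusted p = 0.0578) and passed with the replicate block (adjusted p = 0.000427). Its gelatin call was lost without Fz4-/- gelatin replicate 1 or 2 or wild type gelatin replicate 2 or 3 (range -0.92 to -0.51, the latter without Fz4-/- gelatin replicate 1; adjusted p up to 0.169) and with quantile normalization (adjusted p = 0.0609). Mmp1b was lower by -0.53 ± 0.16 (adjusted p = 0.0492), and this call was lost without any single array of the 6 (range -0.62 to -0.38, adjusted p up to 0.152), with quantile normalization (adjusted p = 0.0511) and with median centring (adjusted p = 0.122). Mmp9 did not pass on gelatin (adjusted p = 0.987) or Matrigel (0.03 ± 0.10, adjusted p = 0.878), with overlapping groups. Mmp1a (-1.24) did not pass on gelatin (adjusted p = 0.0973) and passed there with the block (adjusted p = 0.0298).

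The inhibitors parted. Timp3 was higher in Fz4-/- cells by 1.47 ± 0.41 on gelatin (2.78-fold; adjusted p = 0.0314) and 1.48 ± 0.41 on Matrigel (2.78-fold; adjusted p = 0.0304), and its 3 other probe sets gave 1.41 to 1.57 and 1.17 to 1.46. Timp1 was lower by -1.12 ± 0.19 on gelatin (2.17-fold; adjusted p = 0.00186) and by -0.71 ± 0.19 on Matrigel (1.64-fold; adjusted p = 0.0233). Timp2 differed by 0.15 ± 0.12 and 0.22 ± 0.12 and did not pass. Timp4 differed by 0.06 ± 0.12 and 0.08 ± 0.12 and did not pass either. On both surfaces, then, Timp1 was lower and Timp3 higher in Fz4-/- cells.

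These calls were not equally firm. The Timp3 call was lost on gelatin without Fz4-/- gelatin replicate 2 or 3 or wild type gelatin replicate 1 or 2 (range 1.09 to 1.90, adjusted p up to 0.114). On Matrigel it was lost without Fz4-/- Matrigel replicate 2 or 3 or wild type Matrigel replicate 1, 2 or 3 (range 1.18 to 1.72, adjusted p up to 0.0989). It was also lost with the mean of its probe sets (1.49, adjusted p = 0.0605, and 1.34, adjusted p = 0.0873). The Timp1 call on Matrigel was lost without Fz4-/- Matrigel replicate 3 or wild type Matrigel replicate 1 (range -0.80 to -0.54, adjusted p up to 0.0813) and with median centring (adjusted p = 0.0629).

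**Figure D4:**
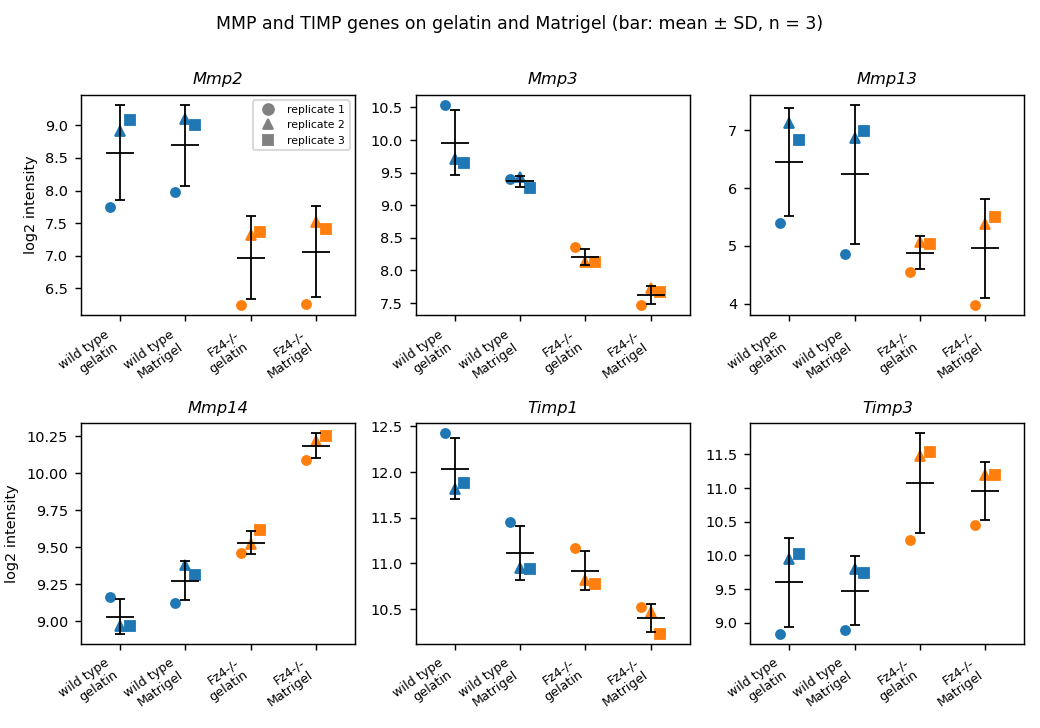
Log2 intensity (vertical axes, each with its own range) of 4 MMP and 2 TIMP genes on the 12 arrays without HEK293 cells, by group (blue wild type, orange Fz4-/-; symbols mark replicates), with mean and SD in black. Mmp2, Mmp3 and Timp1 lie lower and Mmp14 and Timp3 higher in Fz4-/- cells on both surfaces, and replicate 1 (circles) lies low in Mmp2, Mmp13 and Timp3.

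Adamts1 and Adamts5 passed between the genotypes on Matrigel alone. Adamts1 was higher in Fz4-/- cells by 1.64 ± 0.24 there (3.12-fold; adjusted p = 0.000821), with its lowest Fz4-/- array, at 10.70, above its highest wild type array, at 9.79. Adamts5 was higher by 1.16 ± 0.33 (2.24-fold; adjusted p = 0.0322), a call lost without wild type Matrigel replicate 1, 2 or 3 (adjusted p up to 0.0952). Without Fz4-/- Matrigel replicate 1 its difference fell to 0.65, the lowest of the range of 0.65 to 1.44. Its other bright probe sets gave 1.26 and 1.10. The difference between the surfaces is the one tested above for the Matrigel response, and neither gene passed it.

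Adamts9 was higher in Fz4-/- cells by 0.51 ± 0.14 on gelatin (adjusted p = 0.0272) and by 0.65 ± 0.14 on Matrigel (adjusted p = 0.00747). The gelatin call was lost without Fz4-/- gelatin replicate 2 or 3 or wild type gelatin replicate 1 or 2 (range 0.45 to 0.60, adjusted p up to 0.0967), and with the mean of its probe sets (0.23, adjusted p = 0.19). Adamts10 was higher by 0.33 ± 0.10 on Matrigel (adjusted p = 0.0457), a call lost without Fz4-/- Matrigel replicate 1, 2 or 3 or wild type Matrigel replicate 1 or 2 (adjusted p up to 0.16). Its second probe set gave -0.26, and the mean of both sets 0.03 (adjusted p = 0.871).

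Adamts4 was lower in Fz4-/- cells on gelatin, by -0.79 ± 0.18 (1.73-fold; adjusted p = 0.0133), with no overlap between the groups. Its other probe set gave -0.14, and the call was lost with the mean of its probe sets (-0.47, adjusted p = 0.135), without Fz4-/- gelatin replicate 3 and without wild type gelatin replicate 2 (adjusted p up to 0.0564). Adamts7 was lower by -0.64 and -0.58, which did not pass (adjusted p = 0.0961 and 0.125). Both differences passed with the replicate block (adjusted p = 0.000108 and 0.000202). The block raised the members called from 9 to 12 on each surface, where 22.7% of all genes then passed on gelatin and 24.1% on Matrigel.

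Partner genes also differed between the genotypes on both surfaces. Of the 14 activators and surface regulators, 1 was higher and 2 lower in Fz4-/- cells on each surface. Reck, a membrane-anchored inhibitor of MMPs, was lower by -0.73 and -1.03, and Lrp1, the endocytic receptor that clears MMPs and TIMPs, by -1.63 and -1.80. Thbs2, which binds MMP2 and delivers it to LRP1, was higher by 1.55 and 2.39. Of 12 cathepsins and cystatins 4 were lower on each surface, among them Ctsk by -3.35 and -3.18. Of 15 substrates 4 were higher and 2 lower on each surface: Vcan, the proteoglycan that ADAMTS1, ADAMTS5 and ADAMTS9 cut, by -1.57 and -1.70, Lama4 by -2.48 and -2.15, and Bgn by 1.67 and 1.38. In the plasminogen system S100a10 was higher on gelatin (0.52), and Plau (0.92), Plaur (0.60) and S100a10 (0.58) were higher on Matrigel. Of the ADAM proteases Adam19 was higher by 1.41 and 1.56 and Adam8 lower by -0.94 and -0.92.

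Marker lists differed as well. Tagln and Acta2 were higher in Fz4-/- cells on gelatin by 1.42 and 1.28, and Tagln on Matrigel by 0.94. Of the 6 fibroblast markers 1 was lower on gelatin (Pdgfra, by -1.31) and 2 on Matrigel (Pdgfra by -1.79 and Col3a1 by -1.21), while Dcn differed by 1.47 and 1.33 and did not pass. The neuronal marker Tubb3 was lower by -1.07 and -1.40. The mean over the 6 fibroblast markers was 4.05 to 4.79 on the wild type and 4.28 to 4.49 on the Fz4-/- gelatin arrays, and 4.31 to 5.06 against 4.37 to 4.55 on Matrigel, with 2, 3, 1 and 2 of the 6 among the lowest 25% of genes. Of the 12 endothelial markers 4 were higher in Fz4-/- cells on each surface. The part of these markers in the protease results was not tested.

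The co-cultures asked what Norrin does to these genes. In wild type cells 3 members rose and 3 fell with Norrin-expressing HEK293 cells, where 5.39% of all genes rose and 4.18% fell. In Fz4-/- cells 1 rose and 2 fell, where 0.214% of all genes rose and 0.242% fell. The median difference of the members was 0.01 and -0.02, against -0.02 in both over all genes. Mmp13 fell in both, and the direction was shared by 19 of the 37 members, a share that was not counted over all genes.

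Of the 6 members called in wild type, 3 were inhibitors. Timp3 read 7.20, 7.68 and 7.61 with control and 7.96, 8.64 and 8.35 with Norrin-expressing cells, a rise of 0.82 ± 0.16 (1.76-fold; adjusted p = 0.00193). Its 3 other probe sets gave 0.78 to 0.93. The Fz4-/- co-cultures read 8.72, 8.63 and 8.51 with control and 8.75, 8.96 and 8.96 with Norrin-expressing cells. The groups did not overlap in either genotype, but only the wild type difference passed.

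Timp2 read 8.43, 8.91 and 8.90 with control and 9.17, 9.42 and 9.44 with Norrin-expressing cells in wild type, a rise of 0.59 ± 0.13 (1.51-fold; adjusted p = 0.0054). The Fz4-/- co-cultures read 9.08, 8.98 and 9.002 and then 9.23, 9.34 and 9.22, which did not pass. Timp1 went down in wild type, from 7.63, 7.54 and 7.43 to 7.07, 7.08 and 7.07, a fall of -0.46 ± 0.10 (1.38-fold; adjusted p = 0.00648). The Fz4-/- arrays read 6.39, 6.41 and 6.50 and then 6.30, 6.48 and 6.25, which overlapped. No array left out ended the wild type calls of Timp1, Timp2 or Timp3. Fitting all 24 arrays together ended those of Timp1 (adjusted p = 0.0525) and Timp3 (adjusted p = 0.123), and averaging replicates 2 and 3 into 1 sample ended those of Timp1 (adjusted p = 0.0536) and Timp2 (adjusted p = 0.0616). Timp2 alone of the 6 calls was kept in the first of these fits and Timp3 alone in the second, where 9.38% and 3.8% of all genes passed.

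Among the proteases, Adamts5 rose in wild type co-cultures by 0.65 ± 0.17 (1.57-fold; adjusted p = 0.0216). It read 4.76, 5.64 and 5.26 with control and 5.57, 6.06 and 5.99 with Norrin-expressing cells, so 1 Norrin array lay below 1 control array. The Fz4-/- arrays read 3.08, 3.12 and 3.16 and then 3.19, 3.47 and 3.29, which did not pass. The wild type call was lost without wild type control HEK293 replicate 1 or wild type Norrin HEK293 replicate 2 or 3 (range 0.42, without that control array, to 0.86; adjusted p up to 0.0986). Adamts7 fell in wild type from 3.56, 3.96 and 3.92 to 3.52, 3.27 and 3.17 (-0.49 ± 0.13, adjusted p = 0.0169). Its Fz4-/- difference was the same size, from 4.08, 4.15 and 4.01 to 3.71, 3.47 and 3.58 (-0.49 ± 0.13), and did not pass there (adjusted p = 0.12). The wild type call of Adamts7 was lost without wild type control HEK293 replicate 2 or 3 or wild type Norrin HEK293 replicate 2 or 3 (range -0.62 to -0.42, adjusted p up to 0.0874).

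In Fz4-/- co-cultures, where the mouse cells but not the HEK293 cells are Fz4-/-, Adamts1 rose. It read 5.77, 5.86 and 6.02 with control and 6.70, 6.65 and 6.85 with Norrin-expressing cells, a rise of 0.85 ± 0.13 (1.80-fold; adjusted p = 0.00208). In wild type it read 6.08, 6.26 and 6.31 and then 6.32, 6.67 and 6.22, which overlapped and did not pass. Mmp3 fell in Fz4-/- cells from 6.27, 6.00 and 6.18 to 5.103, 5.22 and 5.22 (-0.97 ± 0.16, 1.96-fold; adjusted p = 0.00586). In wild type it read 3.51, 3.60 and 4.20 and then 3.13, 3.54 and 3.54. No array left out ended these Fz4-/- calls. Fitting all 24 arrays together ended that of Adamts1 (adjusted p = 0.0757), and averaging replicates 2 and 3 ended both (adjusted p = 0.0548 for Adamts1 and 0.0851 for Mmp3).

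Mmp13 fell in both genotypes, at a level among the lowest 25% of genes. It read 2.44, 2.65 and 2.43 and then 2.07, 2.07 and 2.16 in wild type (-0.41 ± 0.11, adjusted p = 0.0186), and 2.77, 2.61 and 2.83 and then 2.04, 1.90 and 1.97 in Fz4-/- cells (-0.77 ± 0.11, adjusted p = 0.00131). Fitting all 24 arrays together ended both calls (adjusted p = 0.703 and 0.691). The wild type call was also lost without wild type control HEK293 replicate 2 or wild type Norrin HEK293 replicate 2 (adjusted p up to 0.0921).

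**Figure D5:**
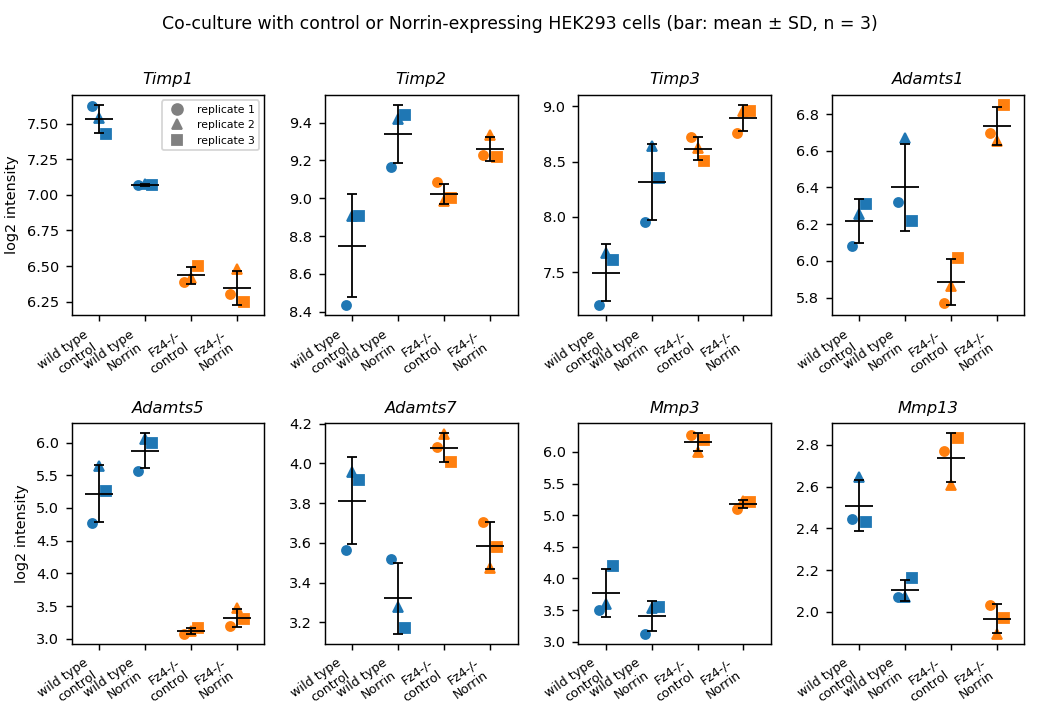
Log2 intensity (vertical axes, each with its own range) of 8 genes on the 12 co-culture arrays, by group (blue wild type, orange Fz4-/-; symbols mark replicates), with mean and SD in black. With Norrin, Timp2 and Timp3 rise and Timp1 falls in wild type, Adamts1 rises and Mmp3 falls in Fz4-/-, and Mmp13 falls in both. The genotypes are not compared here.

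The gelatinases and Mmp14 did not pass in the co-cultures. Mmp2 read 8.53, 8.78 and 8.77 with control and 8.54, 9.18 and 9.25 with Norrin-expressing cells in wild type, and 6.25, 6.09 and 6.20 against 6.05, 6.38 and 6.24 in Fz4-/- cells. Mmp9 read 4.55, 4.70 and 3.96 and then 4.13, 4.11 and 4.06 in wild type, and 3.54, 3.60 and 3.21 against 3.71, 3.46 and 3.57 in Fz4-/- cells. Mmp14 read 7.48, 7.60 and 7.66 and then 7.10, 7.62 and 7.62 in wild type, and 7.43, 7.39 and 7.61 against 7.32, 7.51 and 7.56 in Fz4-/- cells. All 3 genes had overlapping groups in each genotype. Adamts16 read 5.66 to 7.32 over the 12 co-culture arrays and did not pass.

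The Norrin response itself was compared between the genotypes. No member passed (limma; 7 of 37 had an unadjusted p below 0.05), while 0.874% of all genes had a larger and 1.24% a smaller response in Fz4-/- cells. The nearest was Adamts1, whose response was larger in Fz4-/- cells by 0.67 ± 0.18 (adjusted p = 0.063). It passed with quantile normalization (adjusted p = 0.0492), over the genes above the median level (adjusted p = 0.0434), without wild type control HEK293 replicate 1 (0.73, adjusted p = 0.0397) and without wild type Norrin HEK293 replicate 2 (0.80, adjusted p = 0.0185). The contrast for Timp3 was -0.55 ± 0.22 (adjusted p = 0.295) and for Mmp3 -0.61 ± 0.22 (adjusted p = 0.23).

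Other measures moved with Norrin in wild type co-cultures. The mean over the 12 endothelial markers was 6.69 to 6.999 with control and 7.58 to 7.98 with Norrin-expressing cells, and 11 of them rose. In Fz4-/- co-cultures it was 7.70 to 7.84 and 7.86 to 8.04, and 0 of the 12 passed limma's test (4 had an unadjusted p below 0.05). The median difference of these markers in wild type was 0.83, beside 0.82 for Timp3 and 0.59 for Timp2. Partner genes that rose in wild type included Plat, the tissue plasminogen activator (1.21), Reck (1.13), Thbs1 (1.05), Ctsh (1.08) and, among the 15 substrates, 6, led by Fn1 (1.00), while Dcn, also a fibroblast marker, fell by 2.91. Of the other markers, Col1a2 (0.80) and Col3a1 (0.95), of fibroblasts, and Acta2 (0.90) rose in wild type, and Cd68, of macrophages, fell by 2.29. In Fz4-/- co-cultures 0 of the pericyte, fibroblast, macrophage, glial and neuronal markers passed limma's test (1, a glial marker, had an unadjusted p below 0.05). The labels give the mixture of mouse and human RNA only as about equal, and the part of a shift in that mixture was not tested.

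The other 18 members passed in 0 of the 8 comparisons: Mmp1a, Mmp7, Mmp8, Mmp9, Mmp10, Mmp12, Mmp17, Mmp20, Mmp23, Mmp24, Adamts3, Adamts8, Adamts12, Adamts15, Adamts16, Adamts18, Adamts19 and Adamts20. Apart from Mmp1a, their differences in the 6 direct comparisons lay between -0.62 and 0.33.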

How the data were processed

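The authors deposited log2 intensities per probe set, made with RMA, per the submitters' processing notes. Which arrays were normalized together is not given in the sources used here. Of 45101 probe sets, 64 controls, 932 with several gene symbols and 9160 without a symbol were left out; the remaining 34945 stand for 18193 genes, 1 probe set a gene (the highest mean over all arrays). Gene IDs matched all 37 members to RefSeq, which also gave the promoters.

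In R 4.3.3 with data.table, version 1.17.8, limma 3.58.1 fitted a mean per group, apart for the 12 arrays without HEK293 cells and the 12 co-culture arrays (8 residual degrees of freedom each), with empirical Bayes moderation. Errors beside differences are limma's SE with n = 3 arrays a group. An exact two-sided permutation test of 1 gene at this group size cannot go below p = 0.1. The number of arrays limits the precision. On simulated data with 200 genes changed by 1 log2 unit, 88.5% were recovered for Matrigel in wild type and 97% for Norrin in wild type. Unchanged genes called there were 8 and 10. The simulated arrays were independent, whereas replicates 2 and 3 resembled each other here, so these shares do not give the recovery on the real arrays.

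Equal replicate numbers in the labels were tested as pairs through the correlation of the arrays' deviations from their group means over genes. It was 0.24 to 0.72 in the 4 comparisons without HEK293 cells, all over 0.1, so blocked values are given there where they change a call. Arrays correlated best with their own number in 2 of 6 cases for Matrigel in wild type, 3 in Fz4-/- cells, and 4 and 5 for genotype on gelatin and Matrigel. For Matrigel in wild type both cases were those of replicate 1, so there the block mostly sets replicate 1 apart. For Norrin the correlation was 0.10 to 0.36 in wild type and -0.19 to 0.01 in Fz4-/- cells, which was not taken as pairing. Arrays correlated best with their own number there in 4 and 0 of 6 cases.

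The members, the lists and the comparisons were chosen with earlier results of these data known. Any member could be named, with every array for members past the threshold and for Mmp2, Mmp9, Mmp14, Timp1, Timp2 and Timp3. Of a partner list, up to 3 genes past the threshold were named per comparison, and Pcsk6 besides for Matrigel in Fz4-/- cells. Alternatives were quantile normalization, median centring, other rules for probe sets, a level filter, all arrays in 1 fit, a trended robust variance, the replicate block, other uses of replicates 2 and 3, and leaving out each array. The plots used matplotlib 3.10.9 with numpy 2.4.6 and pandas 2.3.3 in Python 3.11.15.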

Additional observations from a re-analysis of the deposited data

Results flagged for a closer look

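No member passed the test of a response that differs between the genotypes, but 8 genes of the partner lists did so for Norrin by limma's interaction test. They were 3 of 9 genes of the plasminogen system, 2 of 14 activators and regulators, 1 of 12 cathepsins and cystatins and 2 of 15 substrates. Over all genes 0.874% had a larger and 1.24% a smaller response in Fz4-/- cells. In Fz4-/- minus wild type cells, the response of Reck was lower by -1.49 ± 0.22 (SE, adjusted p = 0.000867), that of Plat by -1.23 ± 0.16 (adjusted p = 0.000254), that of Ctsh by -1.004 ± 0.16 (adjusted p = 0.00143) and that of Lrp1 by -0.96 ± 0.19 (adjusted p = 0.00982). Fn1 followed with -0.74 ± 0.14 (adjusted p = 0.0071), S100a10 with -0.74 ± 0.15 (adjusted p = 0.0138) and Anxa2 with -0.66 ± 0.16 (adjusted p = 0.0433). These 7 genes had higher values with Norrin in wild type, from 0.43 for Lrp1, which did not pass there (adjusted p = 0.0517), to 1.21 for Plat. Dcn, the proteoglycan decorin, went the other way, with 2.60 ± 0.31 (adjusted p = 0.00011), from a fall of -2.91 in wild type and a difference of -0.32 in Fz4-/- cells that did not pass. In the same contrast all 12 endothelial markers were lower (median -0.69), and 5 of them passed, among them Clec14a (-1.84). The part of this shift in the partner gene results was not tested.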

How the results depend on the processing

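Followed over all alternatives were 48 member differences, namely every call and 5 of the contrasts between responses. In 787 fits, 0 of them changed sign; 665 kept their side of the threshold, 115 lost and 7 gained it. Of the 248 other member differences, which did not pass, 121 changed sign in at least 1 fit, the largest of these being 0.30 in size. Counts of members called moved by over 1.5 times in these cases. With the replicate block, which pairs equal numbers, 10 passed for Matrigel in wild type (26.4% of all genes) and 1 (Adamts1, 0.67, adjusted p = 0.0468) for the Norrin response between the genotypes. In the Norrin comparison of wild type cells the block gave 8 in place of 6, adding Adamts16 and Mmp16. Over genes above the median level, of which 13 and 15 are members in the 2 fits, 3 and 6 passed for Matrigel in wild type and Fz4-/- cells, and 1 for the Norrin response between the genotypes. With replicates 2 and 3 averaged into 1 sample, Matrigel gave 2 and 6, genotype 1 on gelatin and 3 on Matrigel, and Norrin 1 in wild type and 0 in Fz4-/- cells (10 genes in all passed there). With replicates 2 and 3 only, Matrigel gave 15 and 16, where 28% and 30.2% of all genes passed, and its response between the genotypes 1 (Adamts4, beside 61 of all genes). All 24 arrays in 1 fit gave 1 each for that response and for Norrin in wild type and in Fz4-/- cells. Quantile normalization and averaging of the probe sets per gene gave 1 each (Adamts1 and Mmp16) for the Norrin response between the genotypes.

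Leaving out each array gave 5 to 6 members for Matrigel in wild type, 10 in Fz4-/- cells and 0 for their difference. It gave 3 to 7 for genotype on gelatin (4 without Fz4-/- gelatin replicate 2, 5 without Fz4-/- gelatin replicate 3 and 3 without wild type gelatin replicate 2) and 5 to 8 on Matrigel (5 without wild type Matrigel replicate 2). For Norrin it gave 3 to 8 in wild type (3 without wild type Norrin HEK293 replicate 2), 3 in Fz4-/- cells and 0 to 1 for their difference (Mmp3 without wild type control HEK293 replicate 3, Adamts1 without wild type control HEK293 replicate 1 or wild type Norrin HEK293 replicate 2).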
